A study of Homo sapiens with 18 samples.

Results

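The 36 genes described here encode the aminoacyl-tRNA synthetases of human cells, 20 for the cytosol and 16 for the mitochondrion. They were taken by name from the 58302 genes of the RNA-seq table, and each was matched to its Ensembl identifier (older symbols are used, so that AARS is the gene now called AARS1). All 36 were high enough to be tested, among 12982 tested genes. The libraries came from PANC-1, an established line of human pancreatic ductal adenocarcinoma. The shCtrl cells carried a lentiviral shRNA control, which the sample labels call an empty vector while the reagent list of the study holds a non-targeting shRNA, and the shNAT10 cells carried a lentiviral shRNA that stably lowers NAT10, the enzyme that writes N4-acetylcytidine (ac4C) on RNA. RNA-seq had 3 libraries per group, and acRIP-seq, in which fragmented RNA is pulled down with an antibody to ac4C, had 3 IP and 3 input libraries per group. Nothing in the labels says that the libraries of a group were separate cultures, so the p-values measure only the spread between these libraries, which may be technical.

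Aminoacyl-tRNA synthetases attach each amino acid to its tRNA and so set the supply of charged tRNA for translation. Most amino acids have a separate nuclear gene for the mitochondrial enzyme, whereas GARS and KARS each make both forms from a single gene. In the cytosol, a subset of the enzymes (EPRS, DARS, IARS, KARS, LARS, MARS, QARS and RARS) is held in the multi-synthetase complex by the scaffold proteins AIMP1, AIMP2 and EEF1E1. NAT10 also acetylates a few tRNAs, the substrates of these enzymes.

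The knockdown was visible in every library. NAT10 was at 31.6, 27.7 and 28.6 FPKM in the shCtrl libraries and at 7.92, 8.43 and 7.90 FPKM in the shNAT10 libraries (log2 fold change -1.84, SE 0.0762, adjusted p = 3.9e-05, limma). FPKM is the number of reads on a gene divided by its length and by the depth of the library. The depth recovered from the steps between the values was 15831720 to 23521762 reads per library. All 5 ductal epithelial markers were above the filter, KRT7, KRT8, KRT18 and KRT19 being lower and EPCAM higher in shNAT10. Of 18 markers of blood, endothelial, stromal, liver, islet, acinar and glial cells 16 were below the filter, with CD3E, MS4A1, INS and S100B at 0 in every library, and the other two, CD14 and COL1A1, were lower in shNAT10. Their part in the results was not tested. The library shCtrl replicate 2 lay farthest from the others of its group in 26 of the 36 synthetase genes, and without it 22 of the 36 genes passed the test in place of 19. Calls rose over all 12982 tested genes too, from 2751 lower and 2699 higher to 3318 lower and 3303 higher. In bulk RNA, fewer cells with a transcript and less of the transcript per cell cannot be told apart.

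Cytosolic synthetases were abundant and mitochondrial ones mostly were not. In shCtrl, the mean level of the 20 cytosolic genes ran from 20.3 FPKM for HARS, the histidyl enzyme, to 130 FPKM for GARS, the glycyl enzyme, with a median of 51.1 FPKM. The 16 mitochondrial genes ran from 2.97 FPKM for WARS2 to 62.8 FPKM for IARS2, the tryptophanyl and isoleucyl enzymes, with a median of 8.95 FPKM. All 20 cytosolic genes but only 3 of the 16 mitochondrial ones (IARS2, RARS2 and HARS2) were at 20 FPKM or more. The order at the top of the cytosolic list was clear, since GARS (123 to 137 FPKM over the shCtrl libraries) did not overlap MARS (83.6 to 94.5 FPKM), nor MARS the next gene RARS (78.2 to 81.8 FPKM). The ranges of TARS (77.1 to 78.2 FPKM) and RARS met, so that their order was not resolved.

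The family did not move as a block in NAT10-KD cells. Of the 36 genes, 9 were lower and 10 higher at an adjusted p under 0.05, and 17 did not pass, so that 52.8% passed beside 42.0% of all tested genes (21.2% lower and 20.8% higher). The median log2 fold change of the family was -0.09, beside -0.01 over all tested genes, and the median size of the change regardless of direction was 0.27, beside 0.31 over all tested genes. No synthetase gene was called beyond a log2 fold change of 1 by limma on FPKM or by limma-voom on recovered reads, beside 6.48% of all tested genes, and 22 had an unadjusted p under 0.05. The groups did not overlap for 25 of the 36 genes, 14 lower and 11 higher, beside 56.5% of all tested genes (28.6% lower and 27.9% higher). Values as TPM moved the median of all genes from -0.01 to 0.10 and the calls over all genes from 2751 lower and 2699 higher to 2075 lower and 3355 higher; relative to this shift the family stayed divided, with 7 lower and 13 higher. The share of summed FPKM on the mitochondrial chromosome was 15.8% to 16.2% in shCtrl and 13.4% to 14.2% in shNAT10, and its part in that shift was not tested.

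The cytosolic and mitochondrial groups had like counts. Among cytosolic genes 5 were lower, 6 higher and 9 not called, with a median log2 fold change of 0.04, and among mitochondrial genes 4 were lower, 4 higher and 8 not called, with a median of -0.14. Neither median held its value: the cytosolic one was 0.0052 without shCtrl replicate 1 and -0.017 after a correction for length and GC content, and the mitochondrial one was 0.010 at a minimum of 5 FPKM. The summed level of the 20 cytosolic genes was 1085 ± 23.4 FPKM in shCtrl and 1096 ± 18.2 FPKM in shNAT10 (SD, n = 3 each, exact permutation test, two-sided p = 0.5). The summed level of the 16 mitochondrial genes was 234 ± 2.10 FPKM in shCtrl and 261 ± 3.09 FPKM in shNAT10 (SD, n = 3 each, exact permutation test, two-sided p = 0.1, the smallest that 3 against 3 libraries allow). One gene carried that difference. Without IARS2 the summed mitochondrial level was 171 ± 3.50 FPKM in shCtrl and 170 ± 2.09 FPKM in shNAT10 (SD, n = 3 each, exact permutation p = 0.7), and IARS2 made up 26.8% of the sum in shCtrl and 34.7% in shNAT10.

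**Figure D1:**
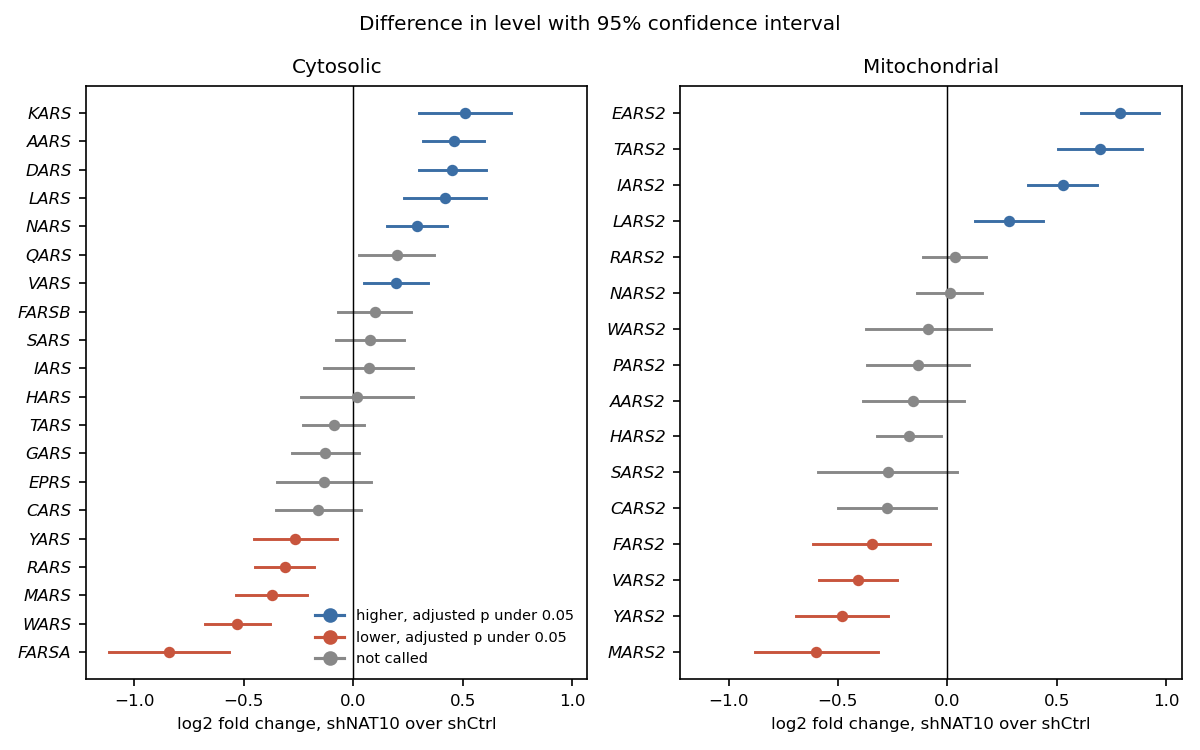
Log2 fold change of each synthetase gene in shNAT10 over shCtrl with its 95% confidence interval, coloured by the call at an adjusted p under 0.05. Both compartments hold genes on each side of 0, from -0.84 for FARSA to 0.51 for KARS in the cytosol and from -0.60 for MARS2 to 0.79 for EARS2 in the mitochondrion.

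Among the cytosolic enzymes, the largest fall was in FARSA, the catalytic subunit of the phenylalanyl enzyme. FARSA (ENSG00000179115, chr19:12922479-12934037, minus strand, GRCh38) was at 28.7, 37.4 and 29.7 FPKM in shCtrl and at 18.9, 17.8 and 16.4 FPKM in shNAT10. The lowest shCtrl library stayed well above the highest shNAT10 library, and the log2 fold change was -0.84 (SE 0.116, adjusted p = 0.0016). Its partner subunit FARSB, which assembles with FARSA into a tetramer, was at 24.7, 26.3 and 25.5 FPKM in shCtrl and at 25.9, 29.1 and 27.0 FPKM in shNAT10. Those groups overlapped, with a log2 fold change of 0.10 (95% interval -0.07 to 0.26, adjusted p = 0.30). The level of FARSA relative to FARSB, both per length, was 1.16, 1.42 and 1.16 in shCtrl and 0.729, 0.611 and 0.605 in shNAT10 (exact permutation p = 0.1, the smallest possible with n = 3 each). The ratio was thus lower in every shNAT10 library. By FPKM FARSA was the higher in every shCtrl library and FARSB in every shNAT10 library, an order that depends on the gene lengths used.

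WARS, the tryptophanyl enzyme and a known interferon-inducible gene, was lower with little spread. It (ENSG00000140105, chr14:100333788-100376805, minus strand) was at 32.6, 35.3 and 35.1 FPKM in shCtrl and at 23.5, 23.8 and 23.9 FPKM in shNAT10 (log2 fold change -0.53, SE 0.0631, adjusted p = 0.00091). YARS, the tyrosyl enzyme, was at 50.4, 59.4 and 51.5 FPKM in shCtrl and at 44.2, 46.2 and 43.5 FPKM in shNAT10. Its groups were separate but close, and its log2 fold change of -0.27 (SE 0.0806, adjusted p = 0.035) lost its call in 7 of 16 alternative settings. A share of the exon bases of WARS (10.6%) and of YARS (4.82%) overlaps annotated genes on the opposite strand. Among genes that rose, such overlap covers 7.60% of DARS, 6.46% of EARS2 and 4.33% of KARS. The library kit keeps the strand, but whether the counting used it is not given in the sources used here.

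**Figure D2:**
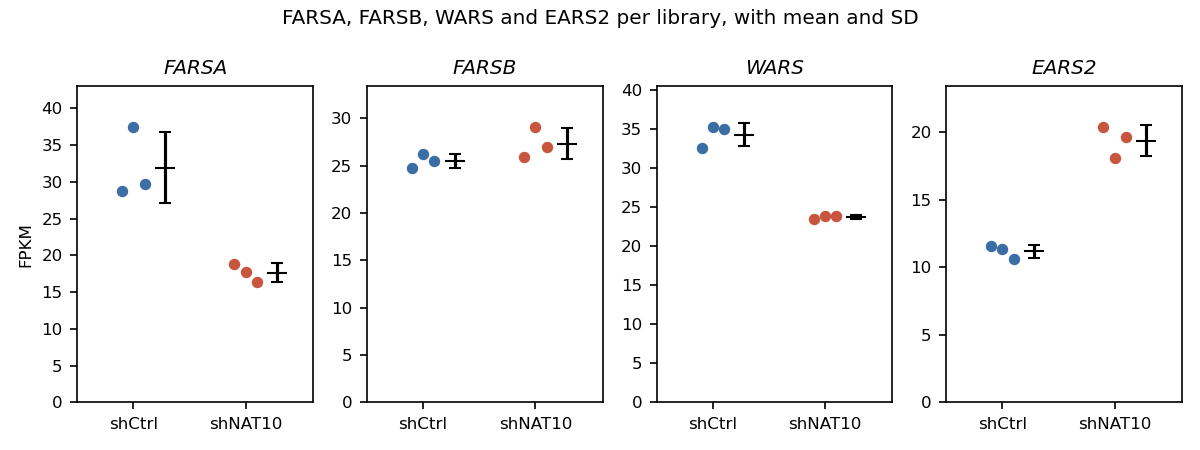
FPKM per library of FARSA, FARSB, WARS and EARS2, with shCtrl in blue, shNAT10 in red, and the mean and SD of each group in black, from 3 libraries each. FARSA and WARS are lower and EARS2 is higher in all 3 shNAT10 libraries than in any shCtrl library, and the FARSB groups overlap.

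The rises outside the complex were in AARS, NARS and VARS. AARS, the alanyl enzyme, was at 53.6, 54.7 and 52.6 FPKM in shCtrl and at 73.4, 75.9 and 71.9 FPKM in shNAT10. The gap between the groups was wider than the range within either, and its log2 fold change was 0.46 (SE 0.0585, adjusted p = 0.0012). NARS, the asparaginyl enzyme, was at 65.1, 62.2 and 66.0 FPKM in shCtrl and at 78.5, 78.4 and 79.5 FPKM in shNAT10 (log2 fold change 0.29, SE 0.0579, adjusted p = 0.0073). VARS, the valyl enzyme, was at 35.0, 36.7 and 34.2 FPKM in shCtrl and at 40.3, 41.6 and 39.5 FPKM in shNAT10. Every shNAT10 library was above every shCtrl library, and the call (log2 fold change 0.20, SE 0.0622, adjusted p = 0.040) was lost in 9 of 16 alternative settings. The other cytosolic enzymes outside the complex (CARS, GARS, HARS, SARS, TARS and FARSB) had log2 fold changes between -0.16 for CARS and 0.10 for FARSB and did not pass, although GARS and TARS were lower in every shNAT10 library.

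The 8 enzymes of the multi-synthetase complex divided as well. Of these, 3 were higher (KARS, DARS and LARS), 2 lower (MARS and RARS) and 3 not called (EPRS, IARS and QARS), beside 3 lower and 3 higher among the 12 cytosolic genes outside the complex. KARS, the lysyl enzyme, was at 41.0, 49.5 and 40.6 FPKM in shCtrl and at 62.5, 62.0 and 61.7 FPKM in shNAT10 (log2 fold change 0.51, SE 0.0890, adjusted p = 0.0042). DARS, the aspartyl enzyme, was at 54.1, 53.2 and 56.3 FPKM in shCtrl and at 71.0, 74.6 and 78.5 FPKM in shNAT10 (log2 fold change 0.45, SE 0.0655, adjusted p = 0.0020). LARS, the leucyl enzyme and a known leucine sensor, was at 41.0, 34.9 and 40.5 FPKM in shCtrl and at 50.4, 52.1 and 52.7 FPKM in shNAT10 (log2 fold change 0.42, SE 0.0797, adjusted p = 0.0061). In each of these genes the lowest shNAT10 library was above the highest shCtrl library.

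MARS, the methionyl enzyme, moved the other way, with 83.6, 94.5 and 85.4 FPKM in shCtrl and 68.4, 68.6 and 66.4 FPKM in shNAT10 (log2 fold change -0.37, SE 0.0688, adjusted p = 0.0054). RARS, the arginyl enzyme, was at 78.2, 81.8 and 80.3 FPKM in shCtrl and at 63.2, 65.7 and 64.4 FPKM in shNAT10 (log2 fold change -0.31, SE 0.0574, adjusted p = 0.0052). The highest shNAT10 library was below the lowest shCtrl library in both. MARS shares 12.4% of its exon bases with genes on the opposite strand (ARHGAP9 and DDIT3). QARS, the glutaminyl enzyme, was at 47.4, 52.4 and 46.1 FPKM in shCtrl and at 58.2, 54.3 and 54.8 FPKM in shNAT10, without overlap, and its log2 fold change of 0.20 missed the threshold (95% interval 0.03 to 0.37, adjusted p = 0.065). EPRS, which charges glutamate and proline, was at 69.8, 56.1 and 66.1 FPKM in shCtrl and at 56.7, 57.8 and 60.0 FPKM in shNAT10, and shCtrl replicate 2 lay below all 3 shNAT10 libraries while the other two shCtrl libraries lay above them. Without that library EPRS was called lower, with a log2 fold change of -0.22 (adjusted p = 0.0075) in place of -0.13.

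The scaffolds that hold the complex differed in direction too. AIMP1 was at 12.4, 15.6 and 13.5 FPKM in shCtrl and at 19.6, 20.2 and 20.3 FPKM in shNAT10 (log2 fold change 0.54, SE 0.092, adjusted p = 0.0040). EEF1E1 was at 5.57, 9.73 and 7.86 FPKM in shCtrl and at 3.81, 5.11 and 4.73 FPKM in shNAT10 (log2 fold change -0.72, SE 0.209, adjusted p = 0.029). AIMP2 was at 50.7, 65.1 and 56.0 FPKM in shCtrl and at 58.4, 62.0 and 52.6 FPKM in shNAT10, with overlapping groups and a log2 fold change of 0.01 (95% interval -0.24 to 0.27).

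Of the mitochondrial enzymes, those for glutamate, threonine, isoleucine and leucine rose. EARS2 (ENSG00000103356, chr16:23522014-23557731, minus strand) was at 11.6, 11.3 and 10.6 FPKM in shCtrl and at 20.3, 18.1 and 19.6 FPKM in shNAT10, the largest rise of the 36 genes (log2 fold change 0.79, SE 0.0757, adjusted p = 0.00040). TARS2 was at 7.96, 9.25 and 8.32 FPKM in shCtrl and at 14.4, 13.3 and 13.9 FPKM in shNAT10 (log2 fold change 0.70, SE 0.0810, adjusted p = 0.00083). IARS2 was at 63.5, 58.8 and 66.2 FPKM in shCtrl and at 91.0, 88.9 and 91.4 FPKM in shNAT10 (log2 fold change 0.53, SE 0.0668, adjusted p = 0.0012). In all of these the gap between the groups was wider than the range within either. LARS2 was at 7.85, 7.81 and 8.04 FPKM in shCtrl and at 9.87, 9.65 and 9.36 FPKM in shNAT10 (log2 fold change 0.28, SE 0.0661, adjusted p = 0.014), and this call was lost without shNAT10 replicate 1 or without shNAT10 replicate 2, with an adjusted p of at most 0.063.

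The mitochondrial enzymes for methionine, tyrosine, valine and phenylalanine fell. MARS2 was at 5.88, 4.89 and 5.79 FPKM in shCtrl and at 3.66, 3.19 and 3.99 FPKM in shNAT10 (log2 fold change -0.60, SE 0.119, adjusted p = 0.0073). YARS2 was at 17.7, 19.7 and 17.8 FPKM in shCtrl and at 14.3, 13.2 and 11.9 FPKM in shNAT10 (log2 fold change -0.48, SE 0.0894, adjusted p = 0.0054). VARS2 was at 8.88, 9.94 and 9.31 FPKM in shCtrl and at 7.11, 7.23 and 6.78 FPKM in shNAT10 (log2 fold change -0.41, SE 0.0758, adjusted p = 0.0055). Each shNAT10 library was below each shCtrl library in these genes, and VARS2 shares 22.0% of its exon bases with the neighbouring gene GTF2H4 on the same strand, so that its reads are less certain. FARS2 was at 4.33, 4.91 and 4.10 FPKM in shCtrl and at 3.62, 3.10 and 3.71 FPKM in shNAT10, and its call (log2 fold change -0.34, SE 0.113, adjusted p = 0.046) was lost in 10 of the 14 alternative settings in which it could be fitted.

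The other mitochondrial enzymes did not pass. RARS2 was at 35.2 to 37.7 FPKM in shCtrl and 36.9 to 38.1 FPKM in shNAT10, and NARS2 at 14.3 to 15.1 FPKM and 14.5 to 15.0 FPKM, with the fold changes closest to 0 among the mitochondrial genes (95% intervals -0.11 to 0.18 and -0.14 to 0.16). CARS2 (log2 fold change -0.28, adjusted p = 0.054) and HARS2 (-0.18, adjusted p = 0.057) were lower in every shNAT10 library and just missed the threshold. SARS2 was also lower in every shNAT10 library, with -0.27 and an adjusted p of 0.14, and 46.2% of its exon bases are shared with a second annotated gene on the same strand. AARS2, PARS2 and WARS2 had overlapping groups and log2 fold changes between -0.16 and -0.09.

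The cytosolic and the mitochondrial enzyme were then set side by side for the 16 amino acids that have a gene for each (EPRS serves for both glutamate and proline). The enzymes of a pair both fell for phenylalanine (FARSA and FARS2), methionine (MARS and MARS2) and tyrosine (YARS and YARS2), and both rose for leucine (LARS and LARS2). Valine was the 1 pair whose enzymes were called in opposite directions, with VARS higher and VARS2 lower. Several of these calls depended on the setting. FARS2 lost its call in 10 of 14 alternative settings, VARS in 9 of 16, YARS in 7 of 16 and LARS2 in 2 of 16. Of the pairs with both enzymes called, only methionine kept both calls wherever they could be fitted. In 7 pairs 1 enzyme was called, and in 4 neither was (cysteine, histidine, serine and proline). For glutamate, threonine and isoleucine the mitochondrial enzyme rose while EPRS (-0.13), TARS (-0.09) and IARS (0.07) did not pass. For alanine and asparagine the cytosolic enzyme alone rose, and for arginine and tryptophan the cytosolic enzyme alone fell.

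The ratio of the cytosolic to the mitochondrial level within each library tests this difference directly. For glutamate, EPRS over EARS2 was 6.04, 4.95 and 6.23 in shCtrl and 2.79, 3.20 and 3.05 in shNAT10, a log2 difference of -0.92 ± 0.119 (SE). For threonine, TARS over TARS2 was 9.71, 8.45 and 9.27 in shCtrl and 4.90, 5.65 and 5.25 in shNAT10, a difference of -0.79 ± 0.083 (SE). The ratios for these amino acids were lower in every shNAT10 library. For alanine, AARS over AARS2 was 8.91, 8.47 and 9.95 in shCtrl and 13.7, 15.1 and 13.1 in shNAT10, a difference of 0.61 ± 0.091 (SE). For valine, VARS over VARS2 was 3.94, 3.69 and 3.67 in shCtrl and 5.68, 5.75 and 5.82 in shNAT10, a difference of 0.60 ± 0.034 (SE), with the smallest SE of the 16. The ratio did not overlap between the groups in 11 of the 16 pairs, lower in 6 and higher in 5. Levels of single genes did not overlap for 56.5% of all tested genes, and the share over ratios of other gene pairs was not computed. The exact two-sided permutation p was 0.1 in each of the 11 pairs, the smallest possible with n = 3 per group, or 0.145 after adjustment over the 16 pairs. The methionine pair, in which both enzymes fell, kept an overlapping ratio (14.2 to 19.3 in shCtrl and 16.6 to 21.5 in shNAT10), as did the leucine pair.

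By the fold of the catalytic domain, synthetases fall into class I and class II. Of the 18 class I genes 7 were lower and 5 higher, and of the 17 class II genes 2 were lower (FARSA and FARS2) and 5 higher (AARS, DARS, KARS, NARS and TARS2), EPRS holding a domain of each class. The median log2 fold change was -0.12 for class I and 0.01 for class II, and the difference between the classes was not tested. Transcripts of the 9 lower synthetase genes had a median GC content of 52.4% and a median length of 3092 bases, beside 48.7% and 3518.5 bases for the 10 higher ones. Over all tested genes the lower ones had 51.6% and 2949 bases and the higher ones 46.7% and 4130 bases. With each library corrected for GC content and length, all 19 calls remained and 4 more genes passed (EPRS, QARS, TARS and CARS2). Over all genes that correction gave 3372 lower and 3487 higher of 12952, in place of 2751 and 2699 of 12982.

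The genes around the synthetases gave the following picture. The partner list held the scaffolds, the editing and transamidation factors and others that handle charged tRNA, and 15 of its 16 genes were tested, with 5 lower and 2 higher, a share of 46.7% near the 42.0% of all tested genes. The largest changes after EEF1E1 were in DTD2, a proofreading deacylase, at -0.69 (adjusted p = 0.0043), AIMP1 at 0.54 and TARSL2, a second cytosolic threonyl enzyme, which was at 4.06, 4.85 and 4.40 FPKM in shCtrl and at 6.28, 6.38 and 5.86 FPKM in shNAT10 (log2 fold change 0.47, adjusted p = 0.0072). The count of lower partner genes was 2 without shNAT10 replicate 1, 3 without shCtrl replicate 3, shNAT10 replicate 2 or shNAT10 replicate 3, and 4 without either of the other libraries.

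Many synthetase genes are known targets of ATF4, the transcription factor of the amino acid response, and that list was examined beside them. Of its 23 genes 21 were tested, with 5 lower, 3 higher and 13 not called, so that 38.1% were called beside 42.0% of all tested genes, with a median log2 fold change of -0.14. CHAC1, a glutathione-degrading enzyme, was at 8.42, 9.81 and 8.83 FPKM in shCtrl and at 3.52, 4.67 and 3.73 FPKM in shNAT10 (log2 fold change -1.17, adjusted p = 0.00058). EIF4EBP1, a repressor of cap-dependent translation, changed by -0.78 and the transcription factor CEBPB by -0.55, whereas TRIB3, a pseudokinase, changed by 0.63. ATF4 itself, named here after its values were seen, was at 85.6, 103 and 85.8 FPKM in shCtrl and at 80.9, 86.5 and 80.5 FPKM in shNAT10, with overlapping groups (log2 fold change -0.14, 95% interval -0.36 to 0.07). Leaving out 1 library moved the higher count between 1 and 4, and it was 1 without shCtrl replicate 3, shNAT10 replicate 1 or shNAT10 replicate 2. The lower count was 3 without shCtrl replicate 3 or shNAT10 replicate 1.

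The interferon targets, listed because WARS is one of them by background knowledge, were mostly lower. Of 14 genes 11 were tested, and 9 were lower, beside 21.2% of all tested genes, a count that held with any 1 library left out, with a median log2 fold change of -1.21. IFIT3 changed by -2.26, the antigen presentation genes HLA-F by -2.19 and HLA-B by -1.42, and the immunoproteasome subunit PSMB9 by -2.17, each larger than the -0.53 of WARS. The list was assembled with earlier results of these data known, so its count is no independent support.

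The promoters of several cytosolic enzymes hold an exact match to TGATGNAA, the core of the C/EBP-ATF response element through which ATF4 acts. RefSeq windows of 300 bases (250 before and 50 after a gene start, GRCh38.p14) were found for 30 of the 36 genes, and DARS, LARS, VARS, YARS, AARS2 and VARS2 had none in the table. The 8 letters, or TTNCATCA on the other strand, were present for 7 of 16 cytosolic and 1 of 14 mitochondrial genes, beside 4.46% of 27305 genes with a window. The form TGATGCAA was present for 6 cytosolic genes, beside 1.08% of all genes. The stretches are shown in the direction of the gene, with the match in capitals, because the same 8 letters recur in genes that moved in different directions:
AARS (chr16:70289675-70289704, minus strand): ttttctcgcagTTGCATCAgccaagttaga
CARS (chr11:3057407-3057436, minus strand): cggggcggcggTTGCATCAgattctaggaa
GARS (chr7:30594834-30594863, plus strand): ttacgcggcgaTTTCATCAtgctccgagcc
IARS (chr9:92293692-92293721, minus strand): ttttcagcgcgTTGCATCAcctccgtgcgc
MARS (chr12:57488053-57488082, plus strand): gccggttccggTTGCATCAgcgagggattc
NARS (chr18:57621804-57621833, minus strand): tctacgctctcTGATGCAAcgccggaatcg
TARS (chr5:33440956-33440985, plus strand): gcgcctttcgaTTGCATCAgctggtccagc
YARS2 (chr12:32756076-32756105, minus strand): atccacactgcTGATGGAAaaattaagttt

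The match begins 187 bases before the gene start in AARS and 197 bases before it in YARS2, and 33 bases or less before the start, or just after it, in the other genes. AARS and NARS rose, MARS and YARS2 fell, and CARS, GARS, IARS and TARS did not pass. Among the 7 cytosolic genes with the match 1 was lower and 2 were higher, with a median log2 fold change of -0.09, and among the 9 cytosolic genes with a window and no match 3 were lower and 1 higher, with a median of 0.02. A match is a run of letters, and whether a factor binds there was not measured.

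In the acRIP-seq lists, peaks were assigned to most cytosolic synthetase genes and to 6 of the 16 mitochondrial ones in each group. The authors' lists hold 16892 peaks for shCtrl and 15813 for shNAT10, 1 list per group, so that peak differences have no replicate check. A peak was listed on 25 of the 36 genes in shCtrl and on 23 in shNAT10, beside 49.6% and 47.7% of all tested genes, with 57 and 47 peaks. Of the 20 cytosolic genes 19 had a peak in shCtrl and 17 in shNAT10. For HARS and MARS the only shCtrl peak lay off the chosen coding transcript. The 6 mitochondrial genes with a peak were FARS2, IARS2, LARS2, NARS2, RARS2 and YARS2 in shCtrl and AARS2, CARS2, HARS2, IARS2, WARS2 and YARS2 in shNAT10. The levels differed in the same sense, since of all tested protein-coding genes at 20 FPKM or more 69.1% and 67.2% had a peak in the respective lists, and of those under 20 FPKM 50.4% and 48.7%. The part of expression level in the difference between the compartments was not tested.

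The positions of the peaks were then compared between the groups. A peak was present in both groups on 18 genes, in shCtrl alone on 7 (CARS, MARS, NARS, FARS2, LARS2, NARS2 and RARS2) and in shNAT10 alone on 5 (TARS, AARS2, CARS2, HARS2 and WARS2), and 6 mitochondrial genes had none, beside 33.7%, 15.8%, 13.9% and 36.5% of all tested genes. On 11 genes, peaks shared at least 1 base between the groups. That took in 18 of the 57 shCtrl peaks (31.6%) and 18 of the 47 shNAT10 peaks (38.3%), beside 25.5% and 27.2% of all peaks in the lists, so a low overlap was general to them. On 6 genes the peaks overlapped by at least 50% of both. By the midpoint of their bases on the coding transcript, 39 shCtrl peaks were placed in the CDS, 11 in the 3′ UTR, 2 in the 5′ UTR and 5 off the chosen transcript. In shNAT10 42 were placed in the CDS, 4 in the 3′ UTR and 1 in the 5′ UTR. Several peaks placed in the CDS had most of their bases off the chosen transcript. Only 19.4% of a QARS peak and 24.0% of a KARS peak in shCtrl lay on it, and 29.3% of a DARS peak in shNAT10.

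WARS had the largest loss of listed peaks. Its 7 shCtrl peaks, the strongest of which lay off the chosen transcript, had fold enrichments of IP over input from 2.91 to 112, and its single shNAT10 peak had 18.8, lying over the weakest of the 7. NARS had 4 peaks in shCtrl, from 2.18 to 11.6-fold, and none in shNAT10, and MARS had 1 at 360-fold in shCtrl, also off the chosen transcript, and none in shNAT10. That MARS peak lies within the span of DDIT3 on the opposite strand. IARS went the other way, from 2 peaks at 2.74 and 4.90-fold to 5 peaks from 2.45 to 198-fold. The 9 genes with lower mRNA held 15 shCtrl peaks and 6 shNAT10 peaks, the 10 with higher mRNA held 20 and 14, and the 17 that did not pass held 22 and 27. WARS alone held 7 of the 15 and 1 of the 6, and NARS held 4 of the 20 and none of the 14. These counts are descriptions with no test, and matching counts over all tested genes are not given here.

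The listed folds of mitochondrial transcripts ranged widely. The median fold enrichment of the 10 shCtrl peaks was 99.5, beside 14.1 for the 47 cytosolic ones, and that of the 10 shNAT10 peaks was 26.4, beside 15.6 for the 37 cytosolic ones. The highest were 771-fold on FARS2 in shCtrl and 620-fold on CARS2 in shNAT10, genes at 4.44 and 7.83 FPKM in those groups. IARS2, the most abundant mitochondrial synthetase, had 4 peaks in each list, at 3.19, 7.63, 116 and 130-fold in shCtrl and at 10.4, 2.28, 4.86 and 2.62-fold in shNAT10. The 116-fold shCtrl peak lay off the chosen transcript, although it counts in the median of 99.5. Of the bases of the 3.19-fold shCtrl peak, 38.7% lay on that transcript. Only the shCtrl peaks at 3.19 and 7.63-fold overlapped shNAT10 peaks, those at 4.86 and 2.62-fold.

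Where peaks of both lists overlapped, the folds of the whole peaks were set side by side, although 8 of the 19 pairs reached 50% of both peaks and the others overlapped less. On QARS, 4 neighbouring peaks were listed in both, with 47.7, 21.2, 4.50 and 18.0-fold in shCtrl and 92.7, 73.1, 45.0 and 60.7-fold in shNAT10. The last pair of these shCtrl peaks was weak, with a listed log10 p of -1.61 and -3.45, beside -93.4 and -201 in shNAT10. Between 20.5% and 59.6% of the bases of these shCtrl peaks lay on the chosen transcript. On YARS2, whose mRNA fell, the overlapping peaks in the CDS had 17.6-fold in shCtrl and 40.2-fold in shNAT10, and on VARS 14.4 and 47.8-fold. On KARS they had 6.90 and 4.48-fold, and on AARS 240 and 9.03-fold, where 91 shared bases made up 23.3% of the shCtrl peak and 43.1% of the shNAT10 peak. Over the 19 overlapping peak pairs the fold was higher in shCtrl in 7 and higher in shNAT10 in 12. The pairs are not separate observations, since the 4 QARS pairs count among the 12 and some EPRS peaks entered several pairs. The share over all overlapping peaks of the lists is not given here. The folds of overlapping peaks thus did not all fall.

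A run of CNN repeats, C followed by any pair of bases, is the sequence context described for ac4C in mRNA. Stretches of 30 bases from shared regions are shown with the longest such run in capitals, in the direction of the mRNA (GENCODE v29 transcripts, GRCh38), chosen after the values were seen. KARS, QARS and VARS held the longest runs, YARS2 the widest shared region of a mitochondrial enzyme, and AARS the overlapping peaks whose listed folds differed most:
KARS (chr16:75641611-75641640, minus strand): gccaagCCACTGCTGCTGCCACCAaccaca
QARS (chr3:49103662-49103691, minus strand): aacaggCACCGGCCCCAGCTCCTGgtggaa
VARS (chr6:31792394-31792423, minus strand): agatcCAACAGCAGCAGCCACCTCCAgggg
YARS2 (chr12:32747308-32747337, minus strand): tcagcataaatCACCAACAAgtaacaaatc
AARS (chr16:70277076-70277105, minus strand): agctgagcagagCTGCCAatacccagaagt

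All of these lie in exons within the CDS. A run of at least 4 repeats (CNNCNNCNNCNN, strand of the mRNA only) was found in 6 of the 18 shared stretches on the coding transcript, which were 31 to 240 bases long. In stretches of 150 bases it was found in 41.4% of 270888 over the coding transcripts of tested genes, in 39.7% of 678 over the synthetase transcripts, in 43.5% of the 62 under a shCtrl peak, in 35.7% of the 70 under a shNAT10 peak and in 39.9% of the 562 under no peak. These shares are descriptions with no test, and stretches of 1 transcript share their source.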

How the data were processed

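The sample titles gave the group (shCtrl or shNAT10) and the kind of each library. For RNA-seq, the authors deposited FPKM per gene and library. For acRIP-seq, the authors deposited 1 peak list per group, with positions in blocks, the fold enrichment of IP over input as a ratio and the p-value of each peak, with log10 of that p-value beside it. HISAT2 2, HTSeq 0.11.0, DESeq2 1.22.2 and the hg38 build stand in the submitters' processing notes with no role, and the peak caller is not given in the sources used here. The FPKM fit whole reads over the longest GENCODE v29 transcript in 96.9% of values above 0 (within 0.01 of a read).

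The test took the genes that reached 1 FPKM in 3 or more of the 6 libraries, and was made on log2(FPKM + 0.1), a scale that understates changes of low genes, with limma 3.58.1 in R 4.3.3 (mean-variance trend, Benjamini-Hochberg over 12982 genes); a call is an adjusted p under 0.05. Standard errors and intervals of fold changes are from that fit. Peaks were placed by the midpoint of those of their bases that lay on the protein-coding transcript with the longest CDS. Overlap meant at least 1 shared base on the same strand. Peaks and sequences were read in Python 3.11.15 with pandas 2.3.3 and NumPy 2.4.6; figures used matplotlib 3.10.9. All 36 genes are named, and of the other lists the scaffolds and the 4 called genes with the largest change. The members and lists were chosen with earlier results of these data known.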

Additional observations from a re-analysis of the deposited data

How the results depend on the processing

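In 16 alternative settings, 15 of the 19 called synthetase genes kept their call wherever they could be fitted and the rest (YARS, VARS, FARS2 and LARS2) lost it at least once; 7 of the 17 others gained a call at least once, and no called gene changed direction. Leaving out 1 library gave 7 to 11 lower and 8 to 11 higher genes, 4 to 6 and 5 to 7 for the cytosolic, 3 to 5 and 3 to 4 for the mitochondrial. A minimum of 5 FPKM, which removed 5 members, left 2 lower mitochondrial genes and a mitochondrial median of 0.010 in place of -0.14. That median was -0.039 as TPM, -0.090 by limma-voom on recovered reads (scaled by TMM) and -0.047 after the length and GC correction, which was chosen after seeing the data; it was -0.173 to -0.120 with 1 library left out. The cytosolic median of 0.043 was 0.152 as TPM, -0.017 after that correction and 0.0052 to 0.061 with 1 library left out. limma-voom could be fitted for 34 of the 36 genes and called 8 lower and 11 higher, beside 2669 lower and 2799 higher of 12480 genes. Without a filter, 3 partner genes and 3 amino acid response genes were lower in place of 5 and 5. With a minimum of 5 FPKM, 3 partner genes were lower, and 6 interferon targets in place of 9. With 1 library left out, the lower partner genes numbered 2 to 4, the higher 2 to 3, the lower amino acid response genes 3 to 7, the higher 1 to 4, the lower interferon targets 9 and the separate pair ratios 11 to 13, and the NAT10 log2 fold change was -1.88 to -1.79. Over all genes, leaving out 1 library moved the calls between 1765 and 3318 lower and between 1774 and 3303 higher. With the replicate number as a block, 8 genes were lower and 9 higher, all among the 19; same-numbered libraries deviated together only weakly (r of -0.04, 0.06 and 0.11), so they share only a number. In the upper 50% of each peak list by fold, 8 genes had a peak in shCtrl and 9 in shNAT10; in the 50% with the lowest p-values 13 had one in shCtrl and 17 in shNAT10, which turns the order of 25 and 23. Overlap of at least 50% of both peaks was met on 6 genes in place of 11. Genes at a few FPKM rest on the fewest reads (89 to 177 for SARS2), which limits calls there.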
